A study of Homo sapiens with 9 samples.

Results

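The genes described here are the cytokine genes IL24 and IL11 and 8 genes related to them by family, receptor or use, IL20, IL19, IL6, LIF, CSF1, CSF2, CSF3 and IL18. IL24 and IL11 were chosen by their higher FPKM values in treated cells in these data, so their differences are given as a description without a test. The other 8 were added as relatives of these, with earlier results of these data known, and the 6 of them with enough RNA were tested. All 10 were found by gene name among the 45754 genes of the deposited table. RNA was sequenced from human lung cancer cells whose labels name the line H441, in 9 libraries. They were held for 24 h in 0.1% DMSO (control), in 10 µM BSGL or in 10 µM RSGL, with 3 libraries per group. Both compounds are known here by these code names alone. Labels give no modified gene or transgene, and do not say that the replicates were separate cultures (the treatment note speaks of 1 replicate), so p-values measure the spread between these libraries, which may be technical.

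Cytokines of the IL-10 family, among them IL-19, IL-20 and IL-24, signal through paired receptor chains, the JAK kinases and STAT3. IL-6, IL-11 and LIF belong to another family, whose members bind a receptor of their own and then the shared signalling chain gp130, the product of IL6ST. The colony stimulating factors M-CSF (CSF1), GM-CSF (CSF2) and G-CSF (CSF3) direct the growth of myeloid cells, and IL-18 is an IL-1 family cytokine that is stored as a precursor and released after cleavage by caspase-1. Lung epithelial and lung tumour cells are known sources of several of them.

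Each library held 16720414 to 18738947 fragments in genes. The labels disagree on the cells: a genotype tag reads H460 for control and BSGL and A549 for RSGL, so that tag and the RSGL exposure cannot be told apart. Of 9 lung lineage markers for which H441 is known, only ABCA3 reached 1 FPKM in 3 libraries, whereas 3 of 4 epithelial markers did. The summed level was higher under RSGL than in control for the lung lineage markers (9.45 to 11.1 against 6.34 to 7.48 FPKM) and lower for the epithelial markers (736.3 to 775 against 1063 to 1091 FPKM). Of the markers of cell types that could bring in cytokine RNA, 1 of 8 for monocytes and macrophages (CD14, at most 2.22 FPKM), 0 of 5 for T cells, 3 of 7 for fibroblasts and 0 of 5 for endothelium did. Their summed level was lower under RSGL than in control for macrophage markers (0.377 to 0.96 against 2.08 to 2.35 FPKM) and fibroblast markers (7.9 to 8.16 against 9.93 to 11.3 FPKM). For T cell markers it was 0.139 to 0.333 against 0.0569 to 0.217 FPKM, and for endothelial markers 0.106 to 0.166 against 0.0298 to 0.0829 FPKM. Of the macrophage markers 2 of 8 and of the T cell markers 2 of 5 were listed at 0 in all libraries. ABCA3 alone reached up to 9.94 FPKM, so the lung lineage sum under RSGL rests largely on 1 gene. Likewise the macrophage sum in control rests largely on CD14. The part of other cells in the results below was not tested. Fewer cells of a kind and less RNA per cell cannot be told apart in such bulk samples.

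Levels are in FPKM, fragments scaled to the length of the gene and the depth of the library, which allows comparison between genes of unequal length. Differences are in log2(FPKM + 1), a scale on which changes of low genes are understated. Those genes that reached 1 FPKM in 3 or more libraries were fitted together with limma, and a gene was called at a Benjamini-Hochberg adjusted p under 0.05 over all 12775 of them. Of the 10 cytokine genes 8 passed this filter, and IL20 and IL19 did not. IL24 passed it through the RSGL libraries alone, CSF3 through the control libraries alone, and CSF2 through the libraries of both compounds, so for these 3 genes passing already implied unequal groups.

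Under RSGL the cells had more RNA of IL24, IL11, CSF2, IL6 and LIF and less of CSF3 and IL18, while CSF1 was not called. Of the 4 tested genes that reached the filter in every group, IL6 and LIF rose, IL18 fell and CSF1 was not called. CSF2 and CSF3, whose passing the filter depended on the groups in which they are high, were called higher and lower, and were also called in a fit of 30093 genes with no such filter. Over all genes tested 54.8% were called in that comparison, 27.2% higher and 27.6% lower, so the number of calls does not set the cytokines apart. Libraries of both groups lay apart in 6 of these 6 genes, as they did in 61.2% of all genes. Under BSGL 0 of the 6 were called, and 0.0861% of all genes were. Libraries lay apart in 3 of 6 (LIF, CSF2 and CSF3), against 12.8% of all genes. Passing the filter alone sets CSF2 and CSF3 apart from control, under BSGL as under RSGL. CSF2 reached 1 FPKM in every library of both compounds and no control library, and CSF3 in control libraries only. At an unadjusted p under 0.05 there were 2 of 6 under BSGL (CSF2 and LIF), against 6.71% of all genes. Limma-voom on recovered fragments also called 0 of 6 there.

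**Figure D1:**
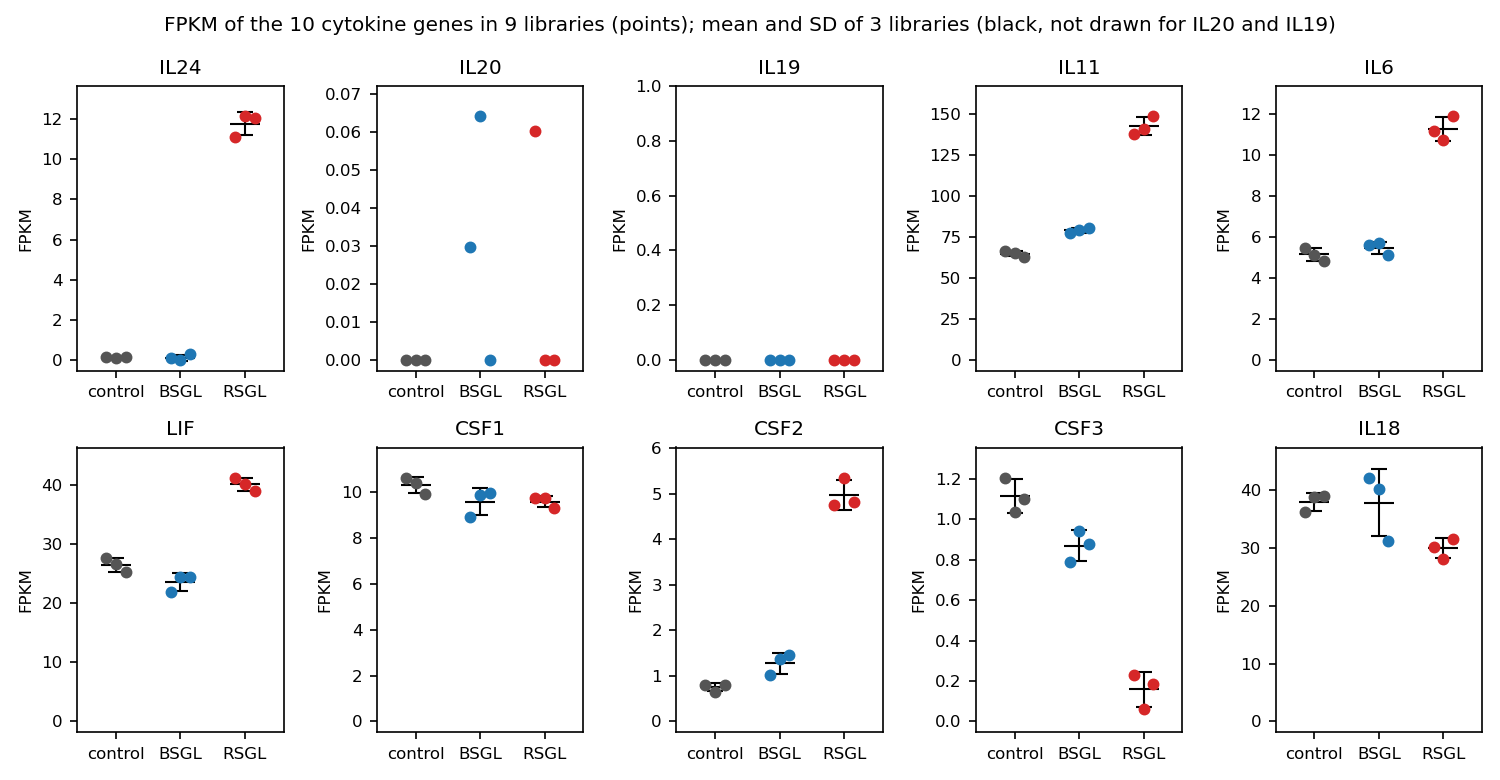
FPKM (vertical axes, each with its own scale) of the 10 cytokine genes in the 3 control, 3 BSGL and 3 RSGL libraries, shown as points, with the mean and SD of each group in black except for IL20 and IL19. RSGL libraries stand apart upward for IL24, IL11, IL6, LIF and CSF2 and downward for CSF3, and the BSGL libraries of IL11, from 77.5 to 80.3 FPKM, lie between control and RSGL.

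Among the 8 genes that passed the filter, mean levels in control ran from IL11 (64.9 FPKM) through IL18 (37.9), LIF (26.5), CSF1 (10.3), IL6 (5.14), CSF3 (1.11) and CSF2 (0.749) to IL24 (0.129), and the libraries of neighbours in that order did not overlap. Under BSGL the order was the same except that CSF2 (1.28 FPKM) stood above CSF3 (0.87). Under RSGL it ran from IL11 (142.5 FPKM) through LIF (40.1), IL18 (29.9), IL24 (11.8), IL6 (11.2), CSF1 (9.58) and CSF2 (4.97) to CSF3 (0.159). The libraries of IL24 and IL6 overlapped there, and those of other neighbours did not.

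The promoters of the genes that were higher under RSGL are shown for those with an entry in the RefSeq promoter table (GRCh38.p14), to set their letters side by side. Each is the 250 bases before the start that table gives, which can differ from the start of the deposited span, 5′ to 3′ on the gene's strand. IL24 is at chr1:206897193-206897442 on the plus strand, IL11 at chr19:55370464-55370713 on the minus strand, IL6 at chr7:22726950-22727199 and CSF2 at chr5:132073539-132073788, both on the plus strand. Capitals mark a match to 1 of 9 motifs, searched on both strands.
IL24: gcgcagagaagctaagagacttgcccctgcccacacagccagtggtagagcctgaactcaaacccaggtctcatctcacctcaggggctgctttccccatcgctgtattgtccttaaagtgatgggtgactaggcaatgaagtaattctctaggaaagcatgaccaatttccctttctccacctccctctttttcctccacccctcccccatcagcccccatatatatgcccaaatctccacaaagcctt
IL11: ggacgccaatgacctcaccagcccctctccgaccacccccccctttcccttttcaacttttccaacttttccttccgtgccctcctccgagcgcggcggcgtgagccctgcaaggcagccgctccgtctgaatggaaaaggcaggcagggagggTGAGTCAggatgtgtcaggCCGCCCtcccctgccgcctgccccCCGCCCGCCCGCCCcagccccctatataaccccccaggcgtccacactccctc
IL6: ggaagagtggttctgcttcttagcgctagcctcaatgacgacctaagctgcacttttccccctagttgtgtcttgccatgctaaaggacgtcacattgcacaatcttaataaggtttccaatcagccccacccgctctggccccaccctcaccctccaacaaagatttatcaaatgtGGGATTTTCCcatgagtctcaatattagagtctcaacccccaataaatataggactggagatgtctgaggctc
CSF2: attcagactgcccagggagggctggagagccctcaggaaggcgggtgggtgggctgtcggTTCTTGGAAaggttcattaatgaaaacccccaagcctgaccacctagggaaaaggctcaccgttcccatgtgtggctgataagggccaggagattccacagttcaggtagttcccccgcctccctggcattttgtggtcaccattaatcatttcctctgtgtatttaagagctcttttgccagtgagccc

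The motifs were AP-1 (TGACTCA), CRE (TGACGTCA), ATF4-CEBP (TGATGNAAN), CEBP (TTGCGNAA), NF-kB (GGGNNTTCC, and a longer form with 1 more free letter in its middle, added after the sequences were seen), STAT (TTCNNNGAA), the TATA box (TATAAA) and the GC box (GGGCGG). IL11 holds an AP-1 match that begins 96 bases before its start, and 4 GC box matches on the opposite strand, of which 3 overlap each other. IL6 holds the longer NF-kB form, 73 bases before its start, and CSF2 a STAT match 190 bases before its start. The IL24 window holds none of these letters. Of 35116 promoter windows of this length 4.20% hold the AP-1 letters, 42.6% the GC box, 5.67% the longer NF-kB form and 6.57% the STAT form. These matches describe the sequence and say nothing on which factor was bound. Windows were used for 6 of the 10 genes, and none for LIF, CSF1, CSF3 and IL18. Of those not printed, IL19 holds an AP-1 and a GC box match in 1 window and a STAT match in another. IL20 holds the shorter NF-kB form and a TATA box in 1 window and none in another. Of all windows 5.78% hold that NF-kB form and 10.7% the TATA box. Neither IL19 nor IL20 passed the filter, so such matches are not particular to the genes that rose.

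IL24, a secreted cytokine also known as MDA-7 and studied for growth arrest and death of tumour cells, showed the largest difference. It stood at 0.129, 0.101 and 0.156 FPKM in control, at 0.0742, 0 and 0.282 under BSGL, and at 11.1, 12.1 and 12.1 under RSGL. The RSGL libraries were all far above the rest, which overlapped each other. In fragments, control held 5, 4 and 6, BSGL 3, 0 and 11, and RSGL 444, 438 and 445. The library with 0 fragments allows up to 3, or 0.0798 FPKM. Over the groups, 1327 fragments under RSGL stood against 15 in control, a ratio of 91.5 with an exact 95% interval of 55.3 to 164 that covers counting error only. BSGL, with 14 fragments, stood at 0.932 times control (0.417 to 2.07, again counting error only). Changes inside that interval could not be told from no change at this depth. The spread between the BSGL libraries, at 3, 0 and 11 fragments, is not in it, so it understates how uncertain this ratio is.

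On the log2(FPKM + 1) scale IL24 was 3.50 above control (SE 0.0925, 95% interval 3.29 to 3.71), the highest of 10909 protein-coding genes tested. Since IL24 was chosen for its rise in these data, this interval describes the spread between libraries and is no test. The log2(FPKM + 1) scale understates the difference, since limma-voom on recovered fragments gave 6.40 and a pseudocount of 0.1 gave 5.70. Its mean level went from rank 13152 among protein-coding genes in control to rank 4323 under RSGL. By a pair of limits chosen after the values were seen, a mean under 0.2 FPKM in control and of at least 5 FPKM under RSGL, IL24 was the only protein-coding gene, of 7124 that reached 5 FPKM under RSGL. The reverse, at least 5 FPKM in control and under 0.2 FPKM under RSGL, held for 0 of 7094 genes.

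IL20 and IL19 lie on the same arm as IL24, in the cluster that also holds IL10. IL20, a cytokine of the skin, had 1, 2 and 0 fragments in the BSGL libraries, 2, 0 and 0 in the RSGL libraries and 0 in each control library. IL19, which signals through the same receptor pair as IL20, was listed at 0 in all 9 libraries. A 0 in this table is not always an absence of RNA, since MIF, a cytokine most cells make, is also listed at 0 throughout. Neither gene could be tested, and of the family's trio in this locus only IL24 had more than 2 fragments in any library.

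On GRCh38 chromosome 1 the table places IL19 (gene ID 29949) at 206798870 to 206842981, IL20 (50604) at 206865247 to 206869223 and IL24 (11009) at 206897404 to 206904139, all on the plus strand. Of the 16 listed genes within 200 kb of IL24 there were 5 that passed the filter, of which 4 rose under RSGL and 0 fell, where 27.2% of all genes were called higher, and under BSGL 0 were called. With so few genes, whether this share differs from that of all genes was not tested. Among those that rose, FCMR passed the filter through the libraries of both compounds and the lncRNA LOC105372879 through RSGL libraries alone. For these genes passing already implied unequal groups, so the share is not free of the filter. FCMR, a receptor for IgM whose gene runs toward IL24 from the other side, stood at 0.976, 0.891 and 0.919 FPKM in control, 1.42, 1.17 and 1.11 under BSGL and 3.89, 3.95 and 3.48 under RSGL. It rose by 1.31 (adjusted p = 3.21e-07, limma). Its control libraries were all under 1 FPKM. The call held in all 10 other settings, the fit with no filter among them (adjusted p at most 4.42e-06, limma or limma-voom). FCMR and IL24 lie on opposite strands and their listed spans share 858 bases at their ends, while their GENCODE v29 exons share 0 bases. How far reads of one were counted for the other was not tested, and the sources used here do not give the strand setting.

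The uncharacterized lncRNA LOC105372879, which starts 1.3 kb upstream of IL24 on the opposite strand, had 8 fragments over the control libraries, 7 under BSGL and 44 under RSGL, and was called higher (log2 0.87, limma adjusted p = 0.000349). It passed the filter through its RSGL libraries alone, and with no filter its adjusted p was 0.00101. MAPKAPK2, a kinase downstream of p38 that stabilises cytokine mRNA, rose from 22.03 ± 0.401 to 33.0 ± 1.9 FPKM (SD, n = 3, log2 0.56, limma adjusted p = 4.63e-06). PFKFB2, a regulator of glycolysis, rose from 2.73 ± 0.105 to 4.15 ± 0.323 FPKM (limma, n = 3). YOD1, a deubiquitinase next to PFKFB2, was at 4.71 and 5.17 FPKM and was not called. MAPKAPK2 is the farthest upstream of the genes called and PFKFB2 starts 155.9 kb downstream of IL24, and IL20 and IL19 between them were at or near 0.

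**Figure D2:**
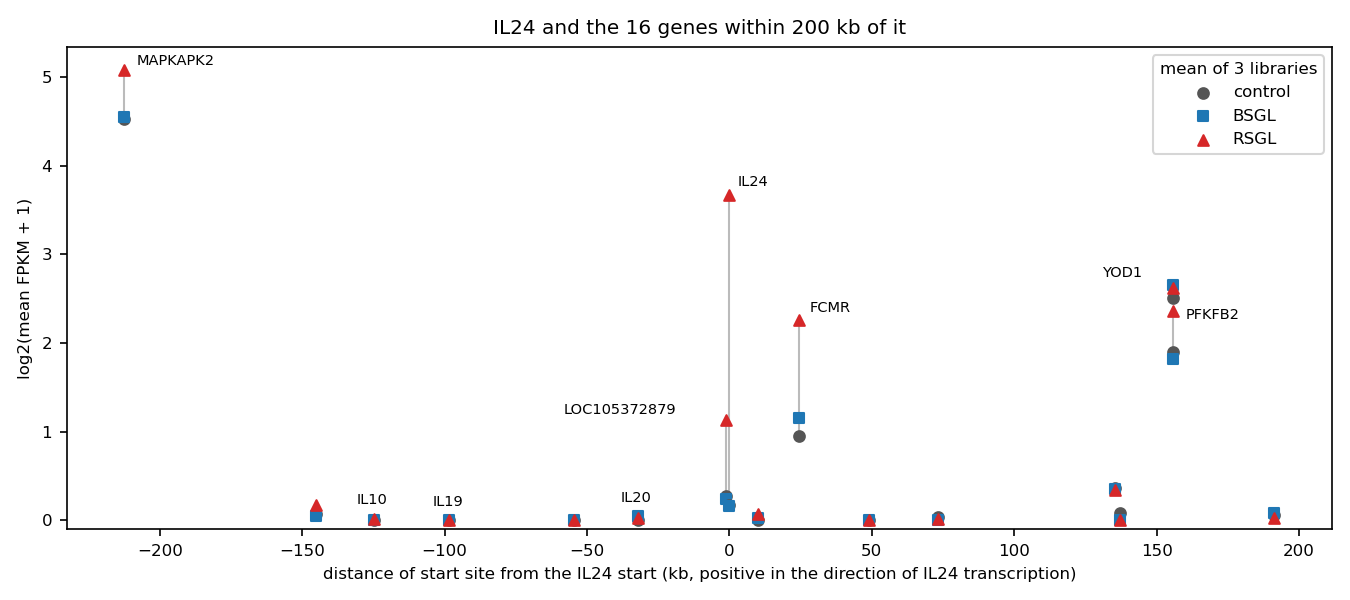
Mean level of IL24 and the 16 listed genes within 200 kb of it, as log2(mean FPKM + 1) of 3 libraries per group (vertical axis), against the distance of each start site from that of IL24 in kb (horizontal axis). IL24, FCMR, LOC105372879, MAPKAPK2 and PFKFB2 have RSGL means above both other groups, and IL10, IL19 and IL20 lie at or near 0 in each group.

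IL11, a cytokine of the gp130 family known for roles in fibrosis and epithelial tumours, was the most abundant of the 10. It stood at 66.3, 65.5 and 63.0 FPKM in control, at 77.5, 79.6 and 80.3 under BSGL, and at 138, 141 and 149 under RSGL. Its 3 groups did not overlap, in the order control, BSGL, RSGL. The RSGL mean was 2.20 times and the BSGL mean 1.22 times that of control, and the RSGL mean was 1.80 times that of BSGL. In log2 units RSGL was 1.12 above control (95% interval 1.04 to 1.20) and BSGL 0.28 above it (0.20 to 0.36). Since IL11 was chosen for its rise in these data, these intervals describe the spread between libraries and are no test. With 2848 to 6500 fragments per library, counting error is small for this gene. IL11 (gene ID 3589) lies on chromosome 19 at 55364382 to 55370463, minus strand, and its mean ranked 827 among protein-coding genes in control and 327 under RSGL.

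IL6, the acute phase cytokine that gave the family its name, was at 5.45, 5.12 and 4.83 FPKM in control, 5.58, 5.68 and 5.10 under BSGL, and 11.2, 10.7 and 11.9 under RSGL. Control and BSGL overlapped and RSGL lay above both. It rose under RSGL by 1.00 (95% interval 0.87 to 1.13, adjusted p = 3.79e-07, limma), while the interval for BSGL ran from -0.055 to 0.20 (adjusted p = 0.907). RSGL also lay above BSGL, by 0.92 (adjusted p = 7.4e-07). An antisense lncRNA, LOC541472, overlaps IL6 by 1732 bases and had at most 9 fragments in any library, against 318 or more for IL6.

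LIF, which keeps stem cells undifferentiated and acts on tumour and stromal cells, was at 27.6, 26.6 and 25.2 FPKM in control, 21.8, 24.4 and 24.5 under BSGL and 41.2, 40.2 and 39.0 under RSGL. RSGL libraries were the highest, and BSGL libraries all lay below control libraries. The rise under RSGL was 0.58 (95% interval 0.47 to 0.70, adjusted p = 7.36e-06, limma). The lower level under BSGL, -0.16 (interval -0.28 to -0.05), was not called (adjusted p = 0.537). Between the compounds LIF differed by 0.75 (adjusted p = 1.46e-06). MGC20647, on the opposite strand, overlaps LIF by 683 bases and had 56 fragments or fewer in each library, against 1736 or more for LIF.

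Receptor chains of these cytokines, through which a secreting cell can also respond to its own product, were measured in the same libraries. The list also holds chains of related cytokines, such as OSMR and IL10RB. IL6ST, the chain gp130, stood at 24.0 ± 0.806 FPKM in control, 23.6 ± 0.626 under BSGL and 23.7 ± 1.57 under RSGL (SD, n = 3), with an interval for RSGL of -0.13 to 0.09. LIFR, the partner chain for LIF, was at 3.65 and 3.73 FPKM in control and RSGL and was not called either. IL6R, the binding chain for IL-6, rose from 2.16, 2.06 and 2.16 FPKM to 4.68, 4.69 and 3.99 (log2 0.80, SE 0.0631). OSMR, which pairs with gp130 for oncostatin M, rose from 20.7 ± 0.843 to 31.0 ± 0.869 FPKM (log2 0.56, SE 0.0452).

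IL11RA, the binding chain for IL-11, stood at 5.87, 5.16 and 5.50 FPKM in control and 4.01, 5.24 and 4.14 under RSGL. These libraries overlapped, since RSGL replicate 2 lay inside the control range. It fell by 0.26 (adjusted p = 0.0246, limma), and the call ended without control replicate 1 or 3, without RSGL replicate 1 or 3, and with no filter (adjusted p = 0.0522 to 0.0887). IL20RB, a chain that IL-24 uses with IL22RA1, rose from 3.53, 3.28 and 3.41 to 5.25, 4.95 and 5.08 FPKM (log2 0.47, SE 0.0477). IL22RA1 stood at 1.47 ± 0.0779 in control and 1.87 ± 0.209 FPKM under RSGL (SD, n = 3). Its call (limma adjusted p = 0.0306) was lost by voom on recovered fragments (adjusted p = 0.058) and in 6 other settings.

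IL20RA, the other partner of IL20RB, averaged 0.0335 FPKM in control and was under the filter. The receptor for M-CSF, CSF1R, averaged 0.0814 FPKM in control and 0.204 under RSGL, and those for GM-CSF and G-CSF, CSF2RB and CSF3R, were also under the filter, as were both chains for IL-18, IL18R1 and IL18RAP. Of the 16 receptor genes 8 passed the filter, of which 5 rose (also IL10RB, a chain shared by IL-10, IL-22 and others) and 1 fell under RSGL. Among those 5, OSMR and IL10RB serve cytokines other than those described here, and the call of IL22RA1 depended on the setting. The count is therefore not one of the members' own receptors alone. The median of the 8 was 0.24, against -0.00085 over all genes tested, of which 27.2% were called higher and 27.6% lower. Under BSGL 0 of 8 were called, with a median of 0.023.

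CSF2, which encodes GM-CSF, was at 0.795, 0.649 and 0.804 FPKM in control, 1.02, 1.37 and 1.45 under BSGL and 4.76, 5.34 and 4.81 under RSGL. The groups did not overlap, in that order. RSGL held 218 fragments over its libraries, BSGL 58 and control 34, a ratio of RSGL to control of 6.63 (exact 95% counting interval 4.61 to 9.82). CSF2 rose under RSGL by 1.77 (SE 0.085, adjusted p = 1.2e-07, limma), or by 2.68 with voom on fragments, and with no filter its adjusted p was 2.4e-06. The difference for BSGL was 0.38 (95% interval 0.19 to 0.57), and it did not pass (adjusted p = 0.3). RSGL was above BSGL by 1.39 (adjusted p = 6.76e-07). Of all genes tested 1.79% were called higher by 1 or more under RSGL. CSF2 passed the filter through the libraries of both compounds alone, so this share is not free of the filter.

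CSF3, which encodes the neutrophil factor G-CSF, went the other way. Its values were 1.21, 1.04 and 1.10 FPKM in control, 0.790, 0.942 and 0.878 under BSGL, and 0.228, 0.0632 and 0.186 under RSGL. The 3 groups did not overlap and RSGL was the lowest. There were 114 fragments in control, 89 under BSGL and 16 under RSGL, so that control stood at 6.89 times RSGL (counting interval 4.06 to 12.5). CSF3 fell under RSGL by 0.87 (limma adjusted p = 2.78e-05, and 6.15e-05 with no filter on low values, through which it passed by its control libraries alone) and was not called under BSGL (-0.18, adjusted p = 0.828). Against BSGL, RSGL was lower by a log2 value of -0.69 (adjusted p = 0.000139). Without any 1 of the control libraries the gene missed the filter and had no test.

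CSF1, which encodes the macrophage factor M-CSF, was at 10.6, 10.4 and 9.93 FPKM in control, 8.91, 9.86 and 9.97 under BSGL and 9.72, 9.72 and 9.31 under RSGL. RSGL libraries all lay just under the control libraries, and BSGL overlapped both. The difference was -0.10 for RSGL (95% interval -0.20 to 0.01, adjusted p = 0.123) and -0.10 for BSGL (-0.21 to 0.01, adjusted p = 0.817), by limma. Between the compounds the interval ran from -0.11 to 0.11. The colony stimulating factors thus divided under RSGL, with CSF2 higher, CSF3 lower and CSF1 not called.

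IL18 was at 36.1, 38.7 and 38.9 FPKM in control, 42.0, 40.1 and 31.2 under BSGL and 30.1, 28.1 and 31.5 under RSGL. RSGL libraries lay below control libraries, whereas BSGL replicate 3 lay within the RSGL range, apart from the other BSGL libraries. IL18 fell under RSGL by 0.33 (95% interval -0.57 to -0.10, adjusted p = 0.022, limma), a call lost without control replicate 2 or 3 or RSGL replicate 1 or 2 (adjusted p = 0.0543 to 0.0754). For BSGL the interval was -0.25 to 0.22. RSGL was below BSGL (-0.32, adjusted p = 0.0271), and that call was lost with no filter, a replicate block and only the compared groups (adjusted p = 0.0574 to 0.066), and without BSGL replicate 1 or 2 or RSGL replicate 1 or 2 (0.0644 to 0.0897).

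Of 17 genes of the IL-1 family and of IL-18 processing 15 were under the filter. CASP4, an inflammatory caspase, rose from 8.14 ± 0.296 to 13.4 ± 1.77 FPKM under RSGL (SD, n = 3, log2 0.65, limma adjusted p = 8.01e-05). Thus 1 of 2 that passed the filter was called, where 54.8% of all genes were. IL18BP, the secreted decoy that binds IL-18, fell from 3.15, 2.92 and 2.55 FPKM to 1.86, 1.73 and 1.88 (log2 -0.45). ADAM17, a sheddase that frees membrane cytokines and receptors, rose from 11.1 ± 0.653 to 15.5 ± 0.614 FPKM (SD, n = 3).

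**Figure D3:**
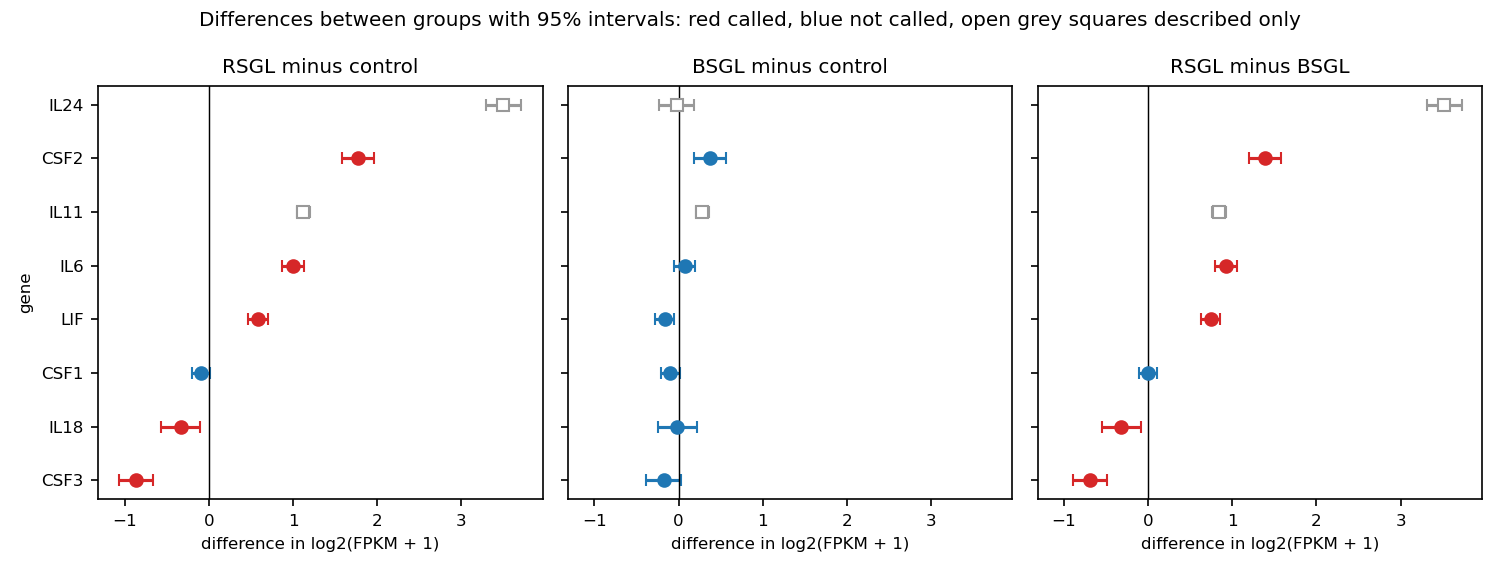
Differences in log2(FPKM + 1) with 95% intervals (horizontal axes) for the 8 cytokine genes that passed the filter (vertical axis), in each of 3 comparisons. Red points passed the adjusted threshold and blue points did not, and open grey squares mark IL24 and IL11, which are described without a test. Most intervals for BSGL minus control lie close to 0, and those of RSGL minus BSGL resemble those of RSGL minus control in order, with which they share the RSGL libraries.

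Between BSGL and RSGL, used at the same dose and time, 5 of the 6 tested cytokine genes differed (limma), with IL6, LIF and CSF2 higher and CSF3 and IL18 lower under RSGL; CSF2 and CSF3 were also called there with no filter. Over all genes tested 54.0% were called in this 1 comparison of compounds, 26.5% higher and 27.5% lower under RSGL, and libraries lay apart in 61.2%. They lay apart in 4 of the 6 cytokine genes, and overlapped for CSF1 and IL18. Since both compounds are compared with the same control libraries, their differences from control share them.

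Signal carriers and targets of these cytokines were taken from lists written from general knowledge. Beside the counts below, 27.2% of all genes tested were called higher under RSGL and 27.6% lower. Of 10 JAK kinases and STAT factors that passed the filter 1 rose and 3 fell under RSGL. The call of STAT5A among the latter (adjusted p = 0.0492, limma) was lost in 6 of 10 other settings and 7 of 9 fits without 1 library (adjusted p up to 0.165). STAT5A passed the filter through control and BSGL libraries alone. STAT3, the main factor downstream of the IL-6 and IL-10 families, fell from 44.7, 45.6 and 45.0 FPKM to 33.6, 32.5 and 31.9 (log2 -0.45, SE 0.0296). STAT5B, which acts downstream of GM-CSF, rose from 15.8, 16.7 and 15.3 to 24.8, 23.5 and 23.1 FPKM (log2 0.55, SE 0.0414). Of 10 feedback genes that passed 2 rose and 4 fell. SOCS3, the inhibitor that STAT3 induces, was at 31.7 FPKM in control, 29.3 under BSGL and 33.9 under RSGL, not called against control (adjusted p = 0.0664) but higher under RSGL than under BSGL (log2 0.21, adjusted p = 0.00153). SOCS6 fell (log2 -0.52) and SOCS2 rose (0.38).

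Of 11 STAT3 target genes that passed 6 rose and 4 fell under RSGL, with a median of 0.30. Over all genes tested 27.2% were called higher and 27.6% lower, with a median of -0.00085. CEBPB, a transcription factor of the acute phase response, rose from 38.8, 42.2 and 36.3 to 107, 107 and 112 FPKM (log2 1.46, SE 0.0585). Its relative CEBPD fell from 18.8, 18.4 and 20.6 to 5.93, 5.85 and 6.92 FPKM (log2 -1.49, SE 0.0747). The fibrinogen chain FGA fell from 2.26, 2.23 and 2.31 to 0.0893, 0.127 and 0.0415 FPKM, and passed the filter through the other groups. Another chain, FGB, fell from a mean of 1.40 to 0.0301 FPKM and also passed through the other groups. For both, passing already implied unequal groups. CEBPD and BCL3 (log2 -1.31), which reached the filter in every group, fell too, so the list did not move in 1 direction. Under BSGL 0 of 63 genes from all 9 lists were called, against 0.0861% of all genes, and 0 by voom. At an unadjusted p under 0.05 there were 9 of 63, against 6.71% of all genes. Under RSGL 21 of the 63 rose and 24 fell, beside the shares of all genes given above.

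Many cytokine mRNAs carry AU-rich elements by which they are bound and degraded. A list of 12 genes for decay and stability of cytokine mRNA mixes factors that degrade and that stabilise it. Not all of them act through AU-rich elements. All 12 passed the filter, and under RSGL 2 rose and 8 fell, with a median of -0.23. Over all genes tested 27.2% were called higher and 27.6% lower, with a median of -0.00085. Of the 8 that fell RC3H1 lost its call in 1 of 10 other settings and 4 of 9 fits without 1 library (adjusted p up to 0.0769, limma). ZFP36, which speeds decay of these mRNAs, rose from 19.3, 20.5 and 15.6 to 33.5, 34.3 and 34.3 FPKM (log2 0.85, SE 0.0859), and MAPKAPK2, whose product phosphorylates ZFP36, rose as given above. TIA1, which holds back translation of such mRNAs, fell from 8.45 ± 0.218 to 6.1 ± 0.253 FPKM (SD, n = 3), and KHSRP, another decay factor, from 56.2 ± 0.748 to 43.3 ± 2.53 FPKM.

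Of 16 other cytokine genes 5 passed the filter, and under RSGL 3 of them rose and 2 fell. Over all genes tested 27.2% were called higher and 27.6% lower. IL12A, a subunit shared by IL-12 and IL-35, rose from 1.76, 1.55 and 1.64 to 4.34, 3.68 and 4.33 FPKM (log2 0.95, SE 0.0835). IL32, a proinflammatory cytokine, rose by 0.65 and IL15, a growth factor of lymphocytes, fell by 0.45. Of 11 further ligands of the IL-10 and gp130 families CLCF1, a neurotrophic cytokine, fell from 16.1 ± 0.758 to 13.7 ± 0.723 FPKM (SD, n = 3, limma adjusted p = 0.00642), EBI3 was not called, and 9 were under the filter.

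**Figure D4:**
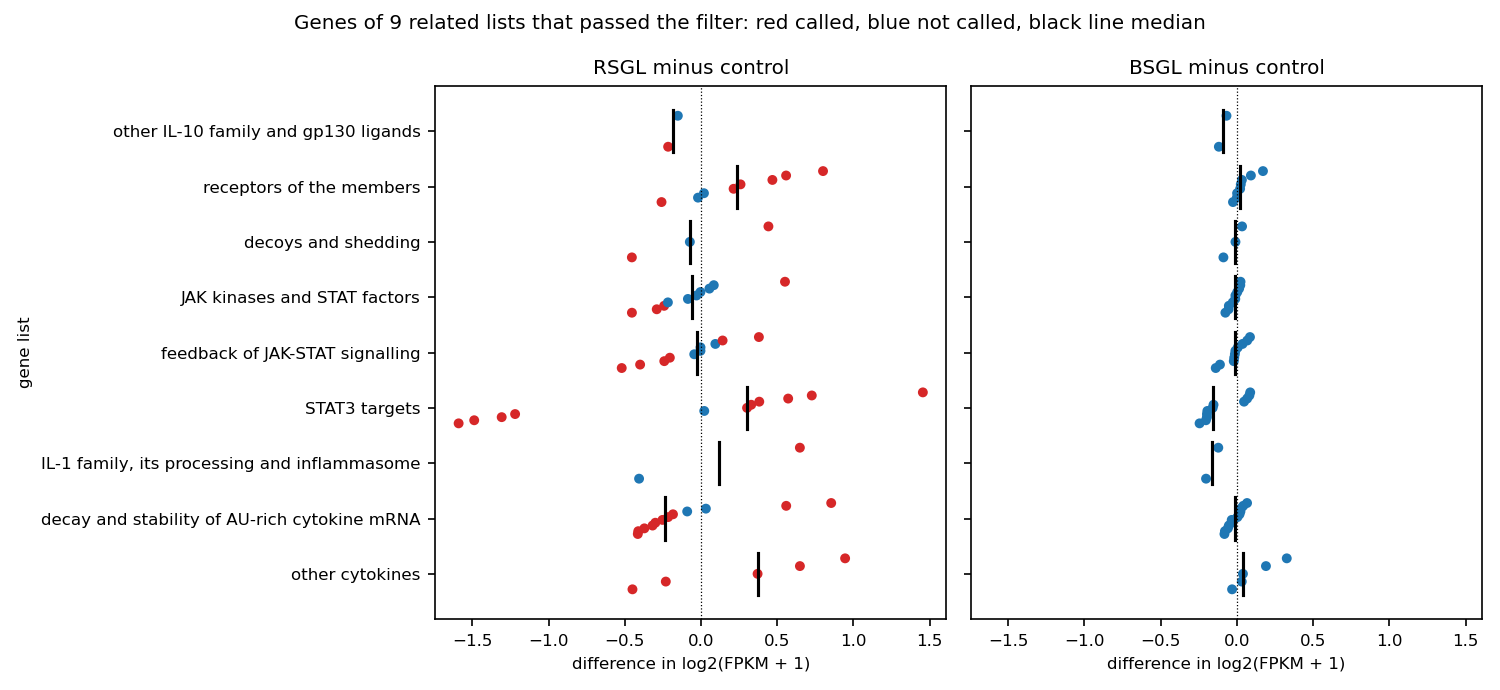
Differences in log2(FPKM + 1) from control (horizontal axes) of the 63 genes that passed the filter in 9 related lists (vertical axis), for RSGL and for BSGL, with called genes in red, others in blue and the list median as a black line. Under RSGL most lists have called genes on both sides of 0, and under BSGL no gene of these lists was called.

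The protein-coding genes with the pattern most like that of IL24, by Pearson correlation over the 9 libraries, were PXDC1 (r = 0.999), VEGFA (0.999), SLC16A6 (0.999), SH2D5 (0.999) and STC2 (0.998). For IL11 they were PAM (0.998), SLC35F3 (0.996), ZBTB21 (0.995), ANGPTL4 (0.995) and ANTXR2 (0.995). Each IL11-like gene had its mean under BSGL between those of control and RSGL, as in ANGPTL4 with 7.64, 12.4 and 85.4 FPKM in control, BSGL and RSGL. IL11 has that order too, so picking genes by likeness to it favours this pattern. The libraries share their groups, so a high r reflects mainly the step to RSGL: 1239 of 10908 genes exceeded 0.95 with IL24 and 915 with IL11.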

How the data were processed

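RNA of 9 libraries, 3 per group, was sequenced. The authors deposited 1 table of FPKM values per gene and library, per the file headers, which also give GRCh38 positions, strand and gene length. Per the submitters' processing notes, the tools included DESeq2 1.16.1, HISAT2 2.0.5 and featureCounts 1.5.0-p3, with no role stated, and the sources used here do not give the strand setting. Libraries were grouped by the labelled treatment. FPKM times gene length gave whole fragments within 0.01 for genes under 300 fragments, so depth and counting intervals (exact, 95%, counting error only) come from these. All 28 gene names turned into dates were restored.

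Values were fitted as log2(FPKM + 1) with limma 3.58.1 (trend and robust options, statmod 1.5.0, R 4.3.3), 1 term per group over 9 libraries, for genes at 1 FPKM or more in at least 3 libraries, with Benjamini-Hochberg adjustment over all 12775. The fit was tested on simulated data. Other pseudocounts, filters, scalings and fits, a replicate block and leaving out each library were tried. The members and lists were chosen with earlier results of these data known. Named are all members, up to 3 called genes per list with the largest change, receptors and regulators of the members, genes within 200 kb of IL24 and IL11, and the 5 genes most like each. IL24 and IL11 received no test because their rise was the reason for choosing them. One list gene is not reported here.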

Additional observations from a re-analysis of the deposited data

How the results depend on the processing

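The direction under RSGL against control of IL24, IL11, IL6, LIF, CSF2, CSF3 and IL18 was kept in each alternative that gave a value, and IL24 was 5.70 with a pseudocount of 0.1 and 6.40 by voom. Without any 1 control library CSF3, and without any 1 RSGL library IL24, missed the filter and had no value. Members called under RSGL against control ranged from 3 to 5 when 1 library was left out (3 without control replicate 2 or 3, where CSF3 had no test and IL18 was lost). For BSGL against control the number of genes called was 11, and 0 with no filter, with a common sum, with no trend and robust options, with only the compared groups and with the replicate block (725 to 1601 at an unadjusted p under 0.05). It was 32 by voom on recovered fragments, and 0 to 8 without 1 library. The cause was not tested. Differences near 0 changed sign: IL24 under BSGL against control was 0.024 with quantile scaling and -0.12 to 0.056 without 1 library, CSF1 between RSGL and BSGL was -0.0076 with a common sum, -0.0081 with quantile scaling and -0.045 to 0.028 without 1 library, and IL18 under BSGL against control was -0.096 to 0.11 without 1 library. Libraries that share a replicate number did not deviate together (r from -0.212 to 0.121). A lack of shared deviation cannot settle whether the numbers pair them. With the replicate block members called were 5 (RSGL against control), 0 (BSGL against control) and 4 (RSGL against BSGL, without IL18), and genes called were 6792, 0 and 6696. For genes under about 20 fragments, such as IL24 without RSGL, depth limits what can be seen.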

Other observations

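Of 28 listed genes within 200 kb of IL11 17 passed the filter, of which 4 rose and 7 fell under RSGL. Of all genes 27.2% were called higher there and 27.6% lower, and under BSGL 0 of the 17 were called by limma. COX6B2, among those that fell, averaged 0.689 FPKM under RSGL and passed the filter through control and BSGL libraries alone. The call of LOC107987271, which also fell, was lost in 3 of 9 fits without 1 library (limma adjusted p up to 0.0508). PTPRH, a receptor tyrosine phosphatase whose start lies 161 kb from that of IL11, rose from 1.5 ± 0.215 to 8.81 ± 0.574 FPKM (SD, n = 3, log2 1.97, limma adjusted p = 2.83e-08), more than IL11 itself on that scale. BRSK1, a kinase, rose from 3.43 ± 0.518 to 6.6 ± 0.467 FPKM. The nearest tested gene, TMEM190, whose start lies 5.7 kb from that of IL11, fell from 3.8 ± 0.625 to 1.97 ± 0.284 FPKM (SD, n = 3, limma adjusted p = 0.000449). UBE2S, a ubiquitin-conjugating enzyme of the anaphase-promoting complex, fell from 284.8 ± 14.1 to 228.3 ± 6.8 FPKM.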
